A study of Homo sapiens with 6 samples.

Results

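A set of 44 genes that cells use to copy their DNA and to divide was followed in 6 lung adenocarcinoma cell lines, as read counts from bulk RNA sequencing. The genes were taken by symbol from a list that was drawn up with earlier results of these data known, and all 44 were among the 16000 genes listed for every library. They comprise 14 genes of S phase (MCM2, MCM3, MCM4, MCM5, MCM6, MCM7, MCM10, PCNA, RRM1, RRM2, TYMS, GINS1, GINS2 and CDC45), 2 that license replication origins (CDC6 and CDT1), the 2 E-type cyclins CCNE1 and CCNE2, 3 cell cycle transcription factors (FOXM1, MYBL2 and E2F1) and 23 genes of G2 and mitosis, here called mitotic.

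The lines were PC-9 and HCC827, established lung adenocarcinoma lines known for their sensitivity to inhibitors of the EGFR tyrosine kinase, and 2 lines with acquired resistance to such inhibitors from each parent. These were PC-9GR and PC-9ER, derived from PC-9, and HCC827GR and HCC827ER, derived from HCC827. The sample title of HCC827GR reads HCC82GR. All lines were grown in the same serum-containing medium. How each derived line was selected, at which dose, whether it is 1 clone, and whether inhibitor was present at harvest are not given in the sources used here. Each line had 1 library, so no line has a replicate, and a difference between 2 lines has no replicate check.

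Each turn of the cell cycle copies the genome and then divides it. In G1, CDC6 and CDT1 load the MCM helicase onto replication origins; at the start of S phase cyclin E activates its kinase, CDC45 and the GINS complex join the helicase, PCNA clamps the polymerases to DNA, and ribonucleotide reductase (RRM1 and RRM2) and thymidylate synthase (TYMS) supply nucleotides. E2F factors switch on many of these genes at the entry to S phase, and the MuvB complex with MYBL2 and FOXM1 switches on the mitotic genes later. Cells that leave the cycle repress both sets, and MKI67, which codes for the Ki-67 antigen, is widely used as a marker of dividing cells.

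The letters of the promoters were compared between the S-phase and the mitotic genes. The window searched was the 250 bases before and the 50 after each RefSeq start (GRCh38.p14), on both strands, and 35 of the 44 genes matched this table of 27305 promoters. Of the 18 mitotic genes matched, 13 (72.2%) held a cell cycle genes homology region, or CHR (TTTGAA or TTCGAA), against 2 of 12 S-phase genes (16.7%) and 16.6% of all promoters. An E2F site (TTTCCCGC, TTTGGCGC, TTTGCCGC or TTTCGCGC) was held by 8 of 12 S-phase genes (66.7%), by 2 of 18 mitotic genes (11.1%) and by 3.33% of all promoters. The CCAAT box (CCAAT) was common to both, in 10 of 12 S-phase genes (83.3%) and 16 of 18 mitotic genes (88.9%), against 35.7% of all promoters. A match is a run of letters and not a measured binding site, and some matches overlap.

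The first 150 bases upstream of 7 starts are printed below, 5′ to 3′ on the gene's strand, with the matches in capitals: an S-phase pair with E2F sites, 4 mitotic genes with a CHR, and CCNE1, whose level differed from that of the other genes in HCC827ER. MCM6 is at chr2:135876444-135876593 (minus strand), PCNA at chr20:5126623-5126772 (minus), PLK1 at chr16:23678739-23678888 (plus), CCNB2 at chr15:59104996-59105145 (plus), KIF23 at chr15:69414199-69414348 (plus), MKI67 at chr10:128126424-128126573 (minus) and CCNE1 at chr19:29811841-29811990 (plus).
MCM6: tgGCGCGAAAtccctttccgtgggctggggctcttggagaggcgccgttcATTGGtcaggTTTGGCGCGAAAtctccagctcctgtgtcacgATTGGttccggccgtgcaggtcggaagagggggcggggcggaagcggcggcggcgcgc
PCNA: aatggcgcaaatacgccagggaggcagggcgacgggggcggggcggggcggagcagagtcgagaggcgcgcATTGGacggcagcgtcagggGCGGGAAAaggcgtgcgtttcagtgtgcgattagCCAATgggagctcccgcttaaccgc
PLK1: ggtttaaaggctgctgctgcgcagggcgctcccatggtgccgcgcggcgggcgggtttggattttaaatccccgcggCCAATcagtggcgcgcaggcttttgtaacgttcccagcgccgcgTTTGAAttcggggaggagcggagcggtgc
CCNB2: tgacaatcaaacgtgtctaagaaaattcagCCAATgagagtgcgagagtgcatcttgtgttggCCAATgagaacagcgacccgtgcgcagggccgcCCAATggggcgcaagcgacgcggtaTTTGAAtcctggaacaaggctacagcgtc
KIF23: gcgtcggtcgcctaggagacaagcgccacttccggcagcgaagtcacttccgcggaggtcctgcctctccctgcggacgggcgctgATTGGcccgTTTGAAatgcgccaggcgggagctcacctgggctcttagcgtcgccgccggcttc
MKI67: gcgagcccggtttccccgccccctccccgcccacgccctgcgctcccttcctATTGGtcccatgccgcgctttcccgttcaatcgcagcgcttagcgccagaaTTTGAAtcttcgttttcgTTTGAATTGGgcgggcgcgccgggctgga
CCNE1: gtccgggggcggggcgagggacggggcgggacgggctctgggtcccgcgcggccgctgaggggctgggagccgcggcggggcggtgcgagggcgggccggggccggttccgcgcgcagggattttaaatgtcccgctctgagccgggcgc
ATTGG is the CCAAT box and GCGGGAAA and GCGCGAAA are E2F sites read on the opposite strand. In the promoter of MKI67 a CHR runs into a CCAAT box read on the opposite strand. The window of CCNE1 held none of the 3 motifs, which says only that these letters are not there. The windows of CENPE and MYBL2, not printed, held none either. Both genes were lower in HCC827ER than in HCC827, with log2 ratios of -3.77 and -1.02. Whether the motifs have a part in the levels was not tested.

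Totals ran from 14529332 counts in HCC827 to 17859787 in PC-9GR. Every one of the 44 genes was counted in each library, the lowest being MCM10 with 27 counts in HCC827ER. The 95% counting interval of the log2 ratio to the parent included 0 for 1 of the 44 genes in HCC827ER (CCNE1), 7 in HCC827GR, 5 in PC-9ER and 3 in PC-9GR, so these differences were not detectable at this depth. The PC-9GR library stood apart from its parent: across 13492 tested genes its Spearman correlation with PC-9 was 0.774, against 0.958 for PC-9ER, 0.940 for HCC827GR with HCC827 and 0.882 for HCC827ER with HCC827. It was nearer to HCC827GR (0.830), HCC827 (0.823), PC-9ER (0.799) and HCC827ER (0.797) than to PC-9. Over all tested genes its nearest line was thus not its labelled parent. Over the 44 genes alone it was nearest to PC-9 (0.841, against 0.826 for HCC827). Whether the library labelled PC-9GR comes from PC-9 was not tested, and its ratios below rest on that label. The epithelial keratins KRT8 and KRT18 were above 1000 CPM in all libraries, but the other 3 epithelial markers were lower in PC-9GR and HCC827GR than in their parents: KRT19 was at 1875 CPM in PC-9 and 13.02 in PC-9GR, and at 2065 in HCC827 and 208 in HCC827GR, EPCAM at 371 and 1.90, and at 440 and 26.8, and CDH1 at 311 and 55.9, and at 590 and 107. KRT19, EPCAM and CDH1 were also lower in HCC827ER than in HCC827, at 708, 130 and 156 CPM. In PC-9ER KRT19 (1029 CPM) and CDH1 (243) were lower than in PC-9, and EPCAM (392) was higher. The 5 epithelial markers summed to between 2848 CPM, in HCC827GR, and 12164, in HCC827. The lung lineage marker NKX2-1 was at 0 counts in PC-9GR and HCC827ER and at most 14.5 CPM elsewhere. Another, NAPSA, was at 27.3 CPM in HCC827, 2.84 in HCC827GR and 15.2 in HCC827ER, and at most 0.503 in the PC-9 lines. SFTPB was at most 2.86 CPM, in PC-9. Leukocyte markers, 4 of 5 listed, summed to at most 5.09 CPM, the 5 fibroblast markers to between 3.16 and 39.8, and the 4 endothelial markers to 213 CPM in PC-9 and 53.8 in PC-9ER but under 1 elsewhere. Ribosomal protein genes took 16.1% of the counts in HCC827ER and 5.85% to 8.50% in the others, and PC-9ER and HCC827ER came in a block of columns of their own; what part these have in the results below was not tested.

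Levels are given as CPM, counts per 1000000 after TMM scaling, a scaling of library sizes that allows for a few very abundant genes. HCC827ER had the lowest level of the 6 libraries for 40 of the 44 genes. The exceptions were TYMS and AURKB, lowest in PC-9, CDC20, lowest in PC-9GR, and CCNE1, lowest in HCC827. The highest level fell to PC-9GR for 13 genes, HCC827 for 12, PC-9ER and HCC827GR for 9 each, and PC-9 for 1, MKI67. How often each library is lowest or highest over all genes was not counted, so these counts have no background beside them. Together the 44 genes took 0.494% of the counts in PC-9, 0.647% in PC-9GR, 0.639% in PC-9ER, 0.789% in HCC827, 0.744% in HCC827GR and 0.171% in HCC827ER. In bulk RNA a lower level can come from fewer dividing cells or from less of the mRNA per cell, and these cannot be told apart.

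**Figure D1:**
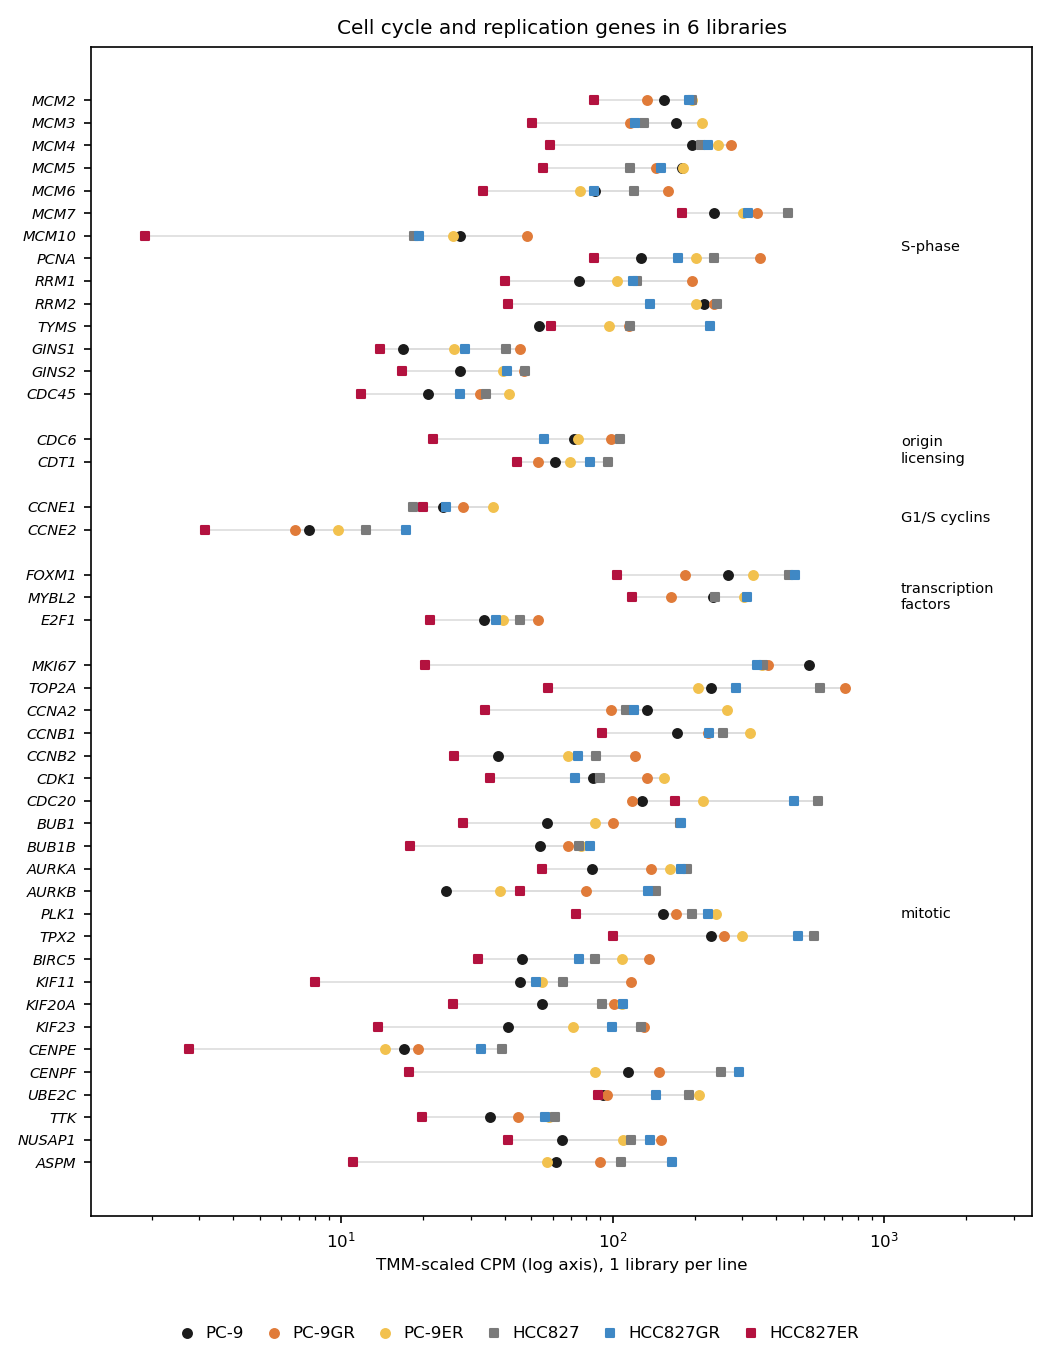
TMM-scaled CPM of the 44 genes (rows, by role) on a log axis; each point is 1 library, circles for PC-9 and the lines derived from it and squares for HCC827 and its derived lines. The HCC827ER squares lie at the left of the row for 40 of 44 genes, a count with no share of all genes beside it. MKI67 and MCM10 have the widest gaps to the other libraries among the genes of their groups.

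Among the MCM genes, whose products form the replicative helicase, MCM2 stood at 155 CPM in PC-9, 133 in PC-9GR, 196 in PC-9ER, 196 in HCC827, 190 in HCC827GR and 85.2 in HCC827ER. MCM3 read 171, 116, 213, 130, 120 and 50.5 CPM in the same order of lines. For MCM5 the values were 180, 144, 182, 115, 150 and 55.3. MCM2, MCM3 and MCM5 were thus the MCM genes that were lower in PC-9GR than in PC-9, and all 3 were lowest in HCC827ER. MCM6 was instead higher in PC-9GR, with 85.7, 160, 75.7, 120, 85.2 and 33.1 CPM. MCM10, which helps to start the assembled helicase, had 27.3, 48.1, 25.9, 18.6, 19.3 and 1.90 CPM. Its log2 ratio of HCC827ER to HCC827 was -3.21, with a 95% counting interval of -3.92 to -2.72, the lowest of the S-phase genes.

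PCNA, the sliding clamp (chr20:5114953-5126626, GENCODE 29), was at 127 CPM in PC-9, 348 in PC-9GR, 203 in PC-9ER, 236 in HCC827, 174 in HCC827GR and 85.5 in HCC827ER. Each line derived from PC-9 lay above PC-9, and each line derived from HCC827 lay below HCC827. GINS1, a subunit of the GINS complex, followed the same order of lines within each parent, with 16.9, 45.5, 26.0, 40.5, 28.5 and 13.8 CPM. RRM2, the regulated subunit of ribonucleotide reductase, had 216, 235, 202, 241, 137 and 41.2 CPM, close together in the 3 PC-9 lines and lower in each line derived from HCC827. TYMS ran the other way in HCC827GR: it was at 53.5, 115, 96.9, 115, 228 and 59.3 CPM, and its log2 ratio of 0.98 there was the highest of the 44 genes in that pair. The deposited TYMS values were not whole numbers in 5 libraries, as happens where a read is split between features. The other S-phase genes, MCM4, MCM7, RRM1, GINS2 and CDC45, had log2 ratios to the parent of 0.47 to 1.39 in PC-9GR, 0.32 to 0.99 in PC-9ER, -0.49 to 0.09 in HCC827GR and -1.84 to -1.30 in HCC827ER.

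The origin licensing factor CDC6 was at 71.8 CPM in PC-9, 98.2 in PC-9GR, 74.4 in PC-9ER, 106 in HCC827, 55.9 in HCC827GR and 21.8 in HCC827ER. CDT1, its partner, varied less, with 61.1, 52.98, 69.8, 96.0, 82.7 and 44.4 CPM. CDC6 thus stood at 4.84-fold and CDT1 at 2.16-fold lower levels in HCC827ER than in HCC827.

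CCNE1, the cyclin that takes cells from G1 into S phase (chr19:29811898-29824308), was the 1 gene of the 44 that was not lower in HCC827ER than in its parent. Its levels were 23.6 CPM in PC-9, 28.2 in PC-9GR, 36.1 in PC-9ER, 18.4 in HCC827, 24.4 in HCC827GR and 20.0 in HCC827ER. The log2 ratio in HCC827ER was 0.12, with a counting interval of -0.12 to 0.37 that includes 0, and it was -0.22 once the trend with transcript length described below was taken off. With libraries scaled by their total counts, all 44 genes were lower in HCC827ER; that scaling moved the median of all tested genes there to -0.33. The other E-type cyclin gene, CCNE2, had lower counts in HCC827ER, at 7.61, 6.76, 9.69, 12.4, 17.4 and 3.16 CPM, and its values were not whole numbers in any library.

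FOXM1, the factor that drives mitotic genes, was at 267 CPM in PC-9, 184 in PC-9GR, 329 in PC-9ER, 446 in HCC827, 469 in HCC827GR and 103 in HCC827ER. MYBL2, which binds the MuvB complex before FOXM1 does, had 233, 164, 305, 237, 313 and 117 CPM. Both were lower in PC-9GR than in PC-9, although most of the mitotic genes were higher there. E2F1, which activates S-phase genes, went the other way in PC-9GR, with 33.4, 52.98, 39.5, 45.5, 37.0 and 21.3 CPM.

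MKI67 (chr10:128096659-128126385) showed the largest difference of the 44 genes in HCC827ER. It was at 527 CPM in PC-9, 373 in PC-9GR, 356 in PC-9ER, 359 in HCC827, 340 in HCC827GR and 20.4 in HCC827ER. The 5 other libraries lay between 340 and 527 CPM. HCC827ER was 17.5-fold lower than HCC827, a log2 ratio of -4.13 with a counting interval of -4.32 to -3.97. MKI67 was also lower than the parent in PC-9GR, PC-9ER and HCC827GR, with log2 ratios of -0.50, -0.57 and -0.08. Its longest annotated transcript, at 12678 bases, is the longest of the set, and with the length trend taken off the ratios were -0.01 in PC-9ER and -3.30 in HCC827ER. TOP2A, the topoisomerase that untangles sister chromatids (chr17:40388516-40417950), had 230 CPM in PC-9, 714 in PC-9GR, 207 in PC-9ER, 579 in HCC827, 285 in HCC827GR and 57.6 in HCC827ER, so it was high in PC-9GR and in HCC827 and lower in both lines derived from HCC827.

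The kinase CDK1 and its cyclins trigger mitosis. CDK1 was at 84.8 CPM in PC-9, 133 in PC-9GR, 154 in PC-9ER, 89.6 in HCC827, 72.6 in HCC827GR and 35.3 in HCC827ER, and CCNB1 read 172, 225, 319, 255, 226 and 91.0 CPM. CCNB2 had 37.7, 121, 68.4, 86.6, 74.5 and 26.0 CPM. All 3 were higher in each line derived from PC-9 than in PC-9 and lower in each line derived from HCC827 than in HCC827. PLK1, a mitotic kinase, had the highest signed mean log2 ratio of the mitotic genes over the HCC827 lines (-0.61, from 0.20 in HCC827GR and -1.41 in HCC827ER), at 153, 171, 240, 196, 225 and 73.3 CPM.

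Among the genes of the spindle, the kinetochore and cell division, BIRC5, which codes for survivin of the chromosomal passenger complex, had 46.4 CPM in PC-9, 136 in PC-9GR, 108 in PC-9ER, 86.2 in HCC827, 75.2 in HCC827GR and 32.0 in HCC827ER. It had the highest mean log2 ratio of the mitotic genes over the lines derived from PC-9. KIF23, a motor of the central spindle, was at 41.2, 130, 71.2, 127, 99.6 and 13.6 CPM. NUSAP1, which bundles spindle microtubules, had 64.7, 150, 109, 117, 137 and 41.2. UBE2C, which passes ubiquitin to targets of the anaphase-promoting complex, was at 92.3, 94.9, 207, 191, 145 and 88.2 CPM, and so was high in PC-9ER rather than in PC-9GR. The kinetochore motor CENPE had 17.1, 19.1, 14.5, 38.97, 32.8 and 2.74 CPM. CENPF, another kinetochore protein, read 113, 148, 86.3, 250, 291 and 17.8 CPM. CENPE and CENPF were 13.7-fold and 13.9-fold lower in HCC827ER than in HCC827. In PC-9GR, PC-9ER and HCC827GR the log2 ratios to the parent were 0.16, -0.23 and -0.25 for CENPE. For CENPF they were 0.38, -0.39 and 0.22. The parents themselves differed: 38 of the 44 genes were higher in HCC827 than in PC-9, with a median log2 ratio of 0.72. The share and the median over all genes were not computed for the parents, so these values have no background. AURKB (2.57) and CDC20 (2.15), which codes for an activator of the anaphase-promoting complex, differed most.

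The question of the pairs was what differed between each resistant line and its parent. In HCC827ER, 43 of the 44 genes were lower than in HCC827, and 42 were at least 2-fold lower with at least 1 CPM in either library, whereas 0 were 2-fold higher. Over all genes at that level, 19.1% were 2-fold lower and 17.8% were 2-fold higher in this pair. The median log2 ratio of the 44 genes was -1.70, and that of all tested genes was 0. Besides MKI67, CENPF and CENPE, the largest differences were those of TOP2A (-3.33), ASPM (-3.26), KIF23 (-3.21), MCM10 (-3.21) and KIF11 (-3.01). TYMS, at -0.96, was the other gene that did not reach 2-fold.

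HCC827GR differed little from HCC827 in these genes. Of the 44, 16 were higher and 28 lower, with a median log2 ratio of -0.12. No gene was 2-fold higher and 1, TOP2A at -1.02, was 2-fold lower, where 7.65% of all genes were 2-fold higher and 9.15% lower. CDC6 (-0.92) and RRM2 (-0.82) came next among the lower genes.

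In the library labelled PC-9GR, 34 of the 44 genes were higher than in PC-9, 11 of them by at least 2-fold, and 0 were 2-fold lower. Over all genes 21.6% were 2-fold higher and 20.0% were 2-fold lower, so the share of 2-fold higher genes was near the background, and the set differed from it in having none that were 2-fold lower. The median log2 ratio was 0.50. The genes that were 2-fold higher were AURKB (1.71), CCNB2 (1.68), KIF23 (1.65), TOP2A (1.63), BIRC5 (1.55), PCNA (1.46), GINS1 (1.42), RRM1 (1.39), KIF11 (1.35), NUSAP1 (1.21) and TYMS (1.10). MCM3 (-0.56), FOXM1 (-0.54), MYBL2 (-0.51) and MKI67 (-0.50) had the lowest ratios.

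In PC-9ER, 36 genes were higher than in PC-9, with a median log2 ratio of 0.48; this pair shares the PC-9 library with the pair of PC-9GR. Only BIRC5 (1.22) and UBE2C (1.17) were 2-fold higher, CDC45 (0.99) lay just under that limit, and 0 were 2-fold lower, where 5.46% of all genes were 2-fold higher and 7.58% lower. The lowest ratios were those of MKI67 (-0.57), CENPF (-0.39), CENPE (-0.23) and MCM6 (-0.18).

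**Figure D2:**
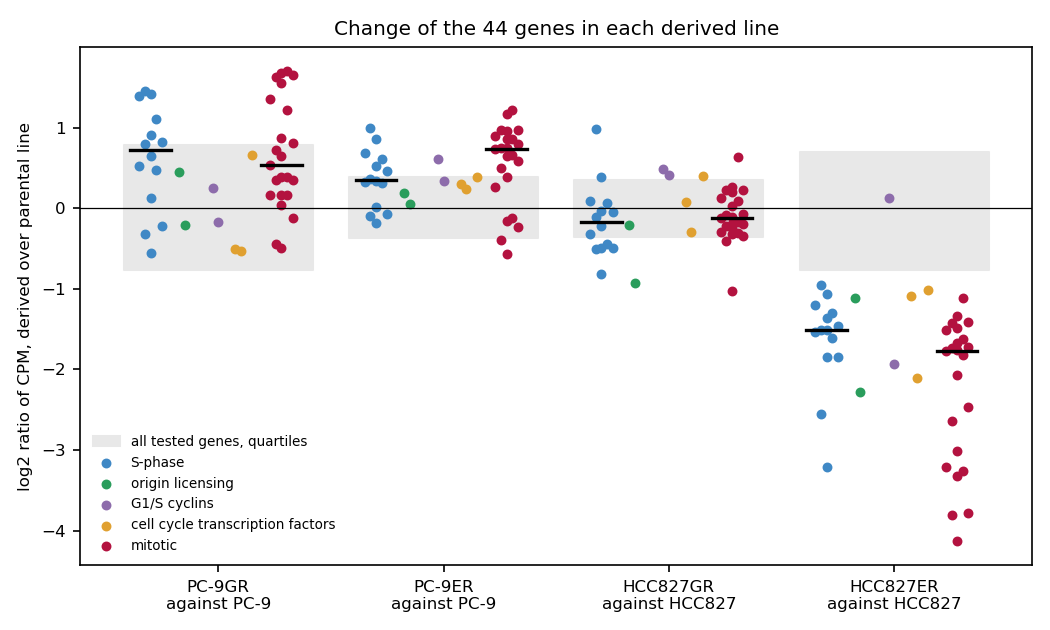
Log2 ratio of CPM of each derived line to its parent for the 44 genes (points, coloured by role); black bars are the medians of the S-phase and the mitotic genes and grey boxes the quartiles of all tested genes. In HCC827ER every gene but CCNE1 lies below the lower quartile of all genes, and in the lines derived from PC-9 most points lie above 0.

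The S-phase and the mitotic genes were compared within each pair. In PC-9GR the median log2 ratio was 0.72 over the 14 S-phase genes and 0.53 over the 23 mitotic genes, a difference of 0.18. The means of the 2 groups differed by -0.05, the other direction. In PC-9ER the mitotic genes were ahead, with medians of 0.35 and 0.73 and a difference of -0.38. HCC827GR had medians of -0.17 and -0.12, a difference of -0.05. In HCC827ER the mitotic genes were the lower group: the medians were -1.51 and -1.77, a difference of 0.26. There 13 of 14 S-phase and 23 of 23 mitotic genes were 2-fold lower. Single genes varied widely within a group: in PC-9GR from -0.56 to 1.46 among S-phase and from -0.50 to 1.71 among mitotic genes. With 1 library a line the differences between the groups have no test, and no interval is given for them.

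Transcript length moved with the ratios. Over all tested genes in HCC827ER, the median log2 ratio ran from 0.88 for genes whose longest transcript has at most 1000 bases to -0.79 for those over 8000, and in PC-9ER from 0.44 to -0.42. In PC-9GR it ran from 0.44 to -0.27 and in HCC827GR from -0.16 to 0.10. Across the 44 genes, which share both libraries of a pair, the Spearman correlation of length with ratio was -0.72 in HCC827ER, -0.75 in PC-9ER, -0.13 in PC-9GR and -0.02 in HCC827GR. With the trend over all genes taken off, the medians of the 44 were -1.82 in HCC827ER, 0.38 in PC-9ER, 0.54 in PC-9GR and -0.14 in HCC827GR, and the differences between S-phase and mitotic medians were 0.43, -0.23, 0.07 and -0.01. The S-phase and mitotic genes had median lengths of 3228 and 3201 bases, but the 4 longest, MKI67, ASPM, CENPF and CENPE, are all mitotic. What makes the ratios move with length was not tested.

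**Figure D3:**
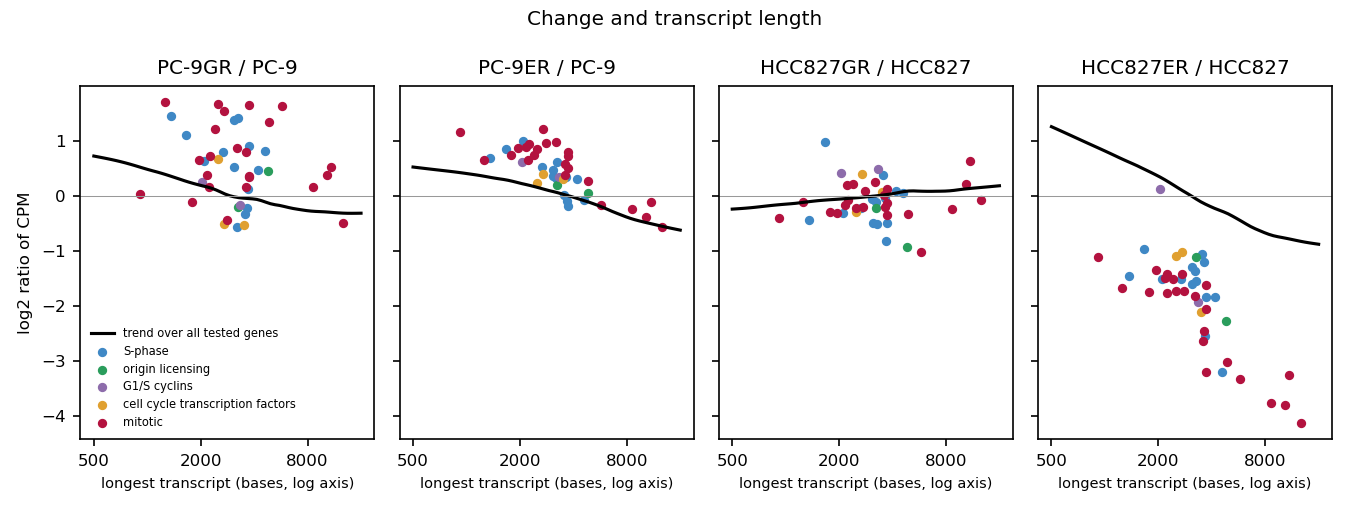
Log2 ratio of CPM against the longest annotated transcript (log axis) in each pair; points are the 44 genes and the line is the trend over all tested genes with a length. In HCC827ER all 44 points lie below the line, and the longest transcripts lie lowest.

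Tests were made across lines, taking the derived lines of a parent as the replicates of the resistant state, with edgeR's quasi-likelihood test and Benjamini-Hochberg adjustment over 13492 genes. In the test of resistant against parental lines with the parent as a block, 0 of the 44 genes and 0.0% of all genes had an adjusted p under 0.05, and 346 genes had an unadjusted p under 0.05, none of them among the 44. The fitted log2 changes of the 44 genes had a median of -0.10, with 10 above 0 and 34 below. The direction turned without HCC827ER, where the median was 0.26. The median was -0.21 without PC-9GR, -0.20 without PC-9ER and -0.48 without HCC827GR. Leaving out a parental library takes the lines of that parent out of the contrast. The median of 0.45 without HCC827 is thus that of the PC-9 lines, and the -0.69 without PC-9 that of the HCC827 lines. In the fit to all libraries RRM2 had the lowest value (-0.77 ± 0.60 SE, adjusted p = 0.998) and TYMS the highest (0.64).

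Within PC-9, the fitted change of its 2 derived lines had a median of 0.45 over the 44 genes, with 39 above 0 and 5 below, and 0.0% of all genes passed by edgeR. BIRC5 had the highest fitted change, 1.40 ± 0.78 (SE), with an edgeR adjusted p of 1. Without PC-9GR the median was 0.48. Within HCC827 the median was -0.69, with 2 above 0 (TYMS and CCNE1) and 42 below, and again 0.0% of all genes passed. That median was -0.11 without HCC827ER, with 16 above 0 and 28 below, and -1.70 without HCC827GR. In the fit with both derived lines of HCC827, TOP2A had the lowest fitted change, -1.76 ± 1.13 (SE), with an edgeR adjusted p of 1. Genes with an unadjusted p under 0.05 numbered 128 within PC-9 and 196 within HCC827, and 0 of the 44 were among them.

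The test of the difference itself, the change in the HCC827 lines less that in the PC-9 lines, gave values below 0 for all 44 genes, with a median of -1.26 against -0.05 over all tested genes. By edgeR 0 of the 44 and 0.0% of all genes passed, and 118 genes had an unadjusted p under 0.05, none of the 44. TOP2A had the largest difference, -2.75 ± 1.71 (SE), and BIRC5, at -2.08 ± 1.04, the smallest unadjusted p. Without HCC827ER the median was -0.64, with 35 genes below 0 and 9 above, and without HCC827GR it was -2.43. Without PC-9GR it was -1.24. The change in the 44 genes was thus not shown to differ between the parents.

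**Figure D4:**
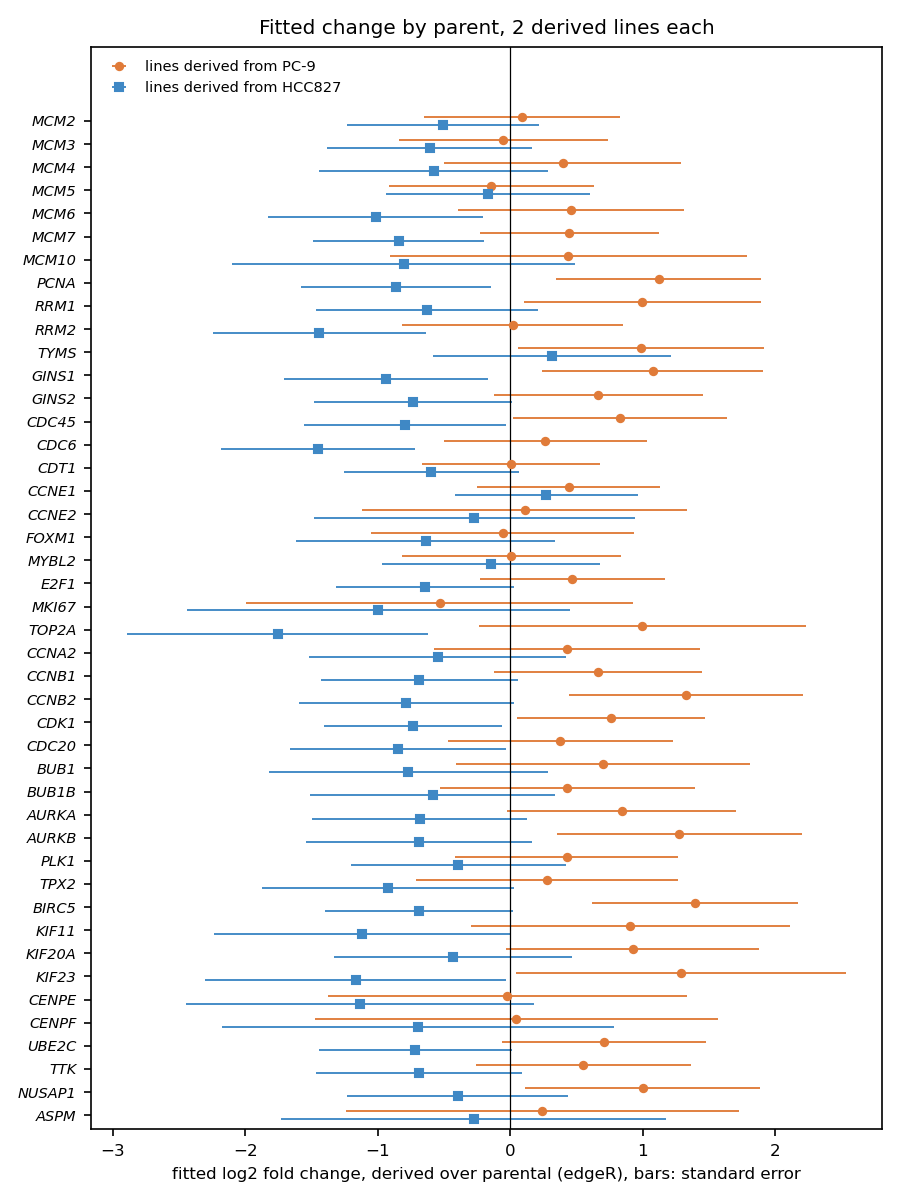
Fitted log2 change of the lines derived from PC-9 (circles) and from HCC827 (squares) against their parent for the 44 genes, with bars for the standard error from edgeR. The square lies left of the circle for all 44 genes, and most pairs of bars overlap or touch.

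Between the ER and the GR lines, with the parent as a block, the median fitted difference of the 44 genes was -0.78, with 3 above 0 and 41 below. By edgeR 0.0% of all genes passed, with 928 at an unadjusted p under 0.05 and 0 of the 44 among them. TOP2A came nearest, at -1.97 ± 0.85 (SE, adjusted p = 0.696). Without HCC827ER the median was 0.02, and without PC-9ER it was -1.83. Without PC-9GR it was -0.97. The ER lines are also those of the separate block of columns, so the block and the ER lines cannot be told apart. DESeq2 on the same counts called 31 genes in the test over both parents, 90 within PC-9, 42 within HCC827, 25 for the difference and 335 between ER and GR lines, and 0 of the 44 in each.

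Other genes of replication and division, from lists that do not hold the 44, had ratios of like direction. These lists too were chosen with earlier results of these data known. In HCC827ER, 6699 of all 13492 tested genes were below 0, and 19.1% of all genes were 2-fold lower. All 70 other mitosis genes were below 0 there and 59 were 2-fold lower, with a median of -1.76. Of 50 other replication genes, 46 were below 0 and 30 were 2-fold lower, with a median of -1.24. All 30 genes of S and G2 repair and checkpoints were below 0, 25 by 2-fold, with a median of -1.75. In PC-9ER 66 of the 70 mitosis genes and 43 of the 50 replication genes were above 0, with medians of 0.51 and 0.37, and in PC-9GR 53 and 41 were, with medians of 0.46 and 0.39. Of all 13492 tested genes, 6848 were above 0 in PC-9ER and 6725 in PC-9GR. In HCC827GR the medians of the mitosis and the replication genes were -0.11 and -0.17. Among replication genes with 1 direction in all 4 pairs, DNMT1, the maintenance DNA methyltransferase, was at 233, 121, 200, 465, 421 and 94.8 CPM in the order of lines used above, and the origin recognition gene ORC3 was at 21.8, 37.3, 27.8, 28.1, 31.4 and 33.9.

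Of 31 genes that control entry into S phase, 10 were above 0 and 21 below in HCC827ER, with a median of -0.59; 10 were 2-fold lower and 2 were 2-fold higher, beside 19.1% and 17.8% of all genes. The medians of the other pairs lay between 0.03 and 0.13. CCND1, the D-type cyclin downstream of growth factor signals, was lower than the parent in each pair, at 357 CPM in PC-9, 260 in PC-9GR, 95.7 in PC-9ER, 412 in HCC827, 238 in HCC827GR and 77.9 in HCC827ER. The CDK inhibitor CDKN1A read 47.7, 214, 24.6, 8.89, 4.14 and 6.67 CPM in the same order, and so was high in PC-9GR. CDKN1B varied little, at 33.9, 37.3, 38.9, 53.8, 42.2 and 66.9 CPM. CDKN2A was at 201, 0, 210, 290, 275 and 391 CPM, with 0 counts in PC-9GR, where 3 counts would be 0.168 CPM. Its neighbour CDKN2B was at 67.3 CPM in PC-9 and 0.0559 in PC-9GR, and at 19.8, 17.3, 11.2 and 5.76 in the other 4 lines. CDKN1C, another inhibitor, was low but highest in HCC827ER, at 0.172, 1.45, 0.560, 0.724, 1.36 and 8.29 CPM. RB1, the restraint on E2F, had 46.8, 58.0, 34.5, 41.8, 101 and 27.2 CPM.

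Of 25 genes of quiescence and p53 arrest, 17 were above 0 in HCC827ER, 7 of them by 2-fold (17.8% of all genes were). The other 8 were below 0, 3 of them by 2-fold (19.1% of all genes were). The median was 0.49. In PC-9GR 7 were 2-fold higher and 8 were 2-fold lower, beside 21.6% and 20.0% of all genes. In HCC827GR 6 were 2-fold higher and 3 were 2-fold lower, beside 7.65% and 9.15% of all genes. In PC-9ER 2 were 2-fold higher and 2 were 2-fold lower, beside 5.46% and 7.58%. CCNG1, a p53 target, was at 65.6 CPM in PC-9, 137 in PC-9GR, 90.0 in PC-9ER, 75.9 in HCC827, 111 in HCC827GR and 206 in HCC827ER. BTG2, an antiproliferative gene, had 0.572, 11.6, 1.18, 3.03, 8.40 and 10.95 CPM. Both were among 4 of the 25 that were higher than the parent in each pair, and 1, DYRK1A, was lower in each pair. The share of all genes with 1 direction in every pair was not counted, so these counts have no background.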

How the data were processed

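The deposited table holds expected counts per gene, per the file headers, in 2 side-by-side blocks of columns, with PC-9ER and HCC827ER in the second; 16000 genes are in both blocks, 854 only in the first and 306 only in the second. Values with a fraction (13.2% to 14.3% of genes a library) were rounded. Libraries were made from total RNA with a stranded kit that removes ribosomal RNA, per the labels' protocols, and the submitters' processing notes name HISAT2 2.0.4, Cuffdiff and the build GRCh38.p13; no counter is named in the sources used here. Loci and the longest transcript per gene come from GENCODE 29 (GRCh38) and promoters from RefSeq.

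Genes passing filterByExpr (13492, all 44 members among them) were fitted in edgeR 4.0.16 (R 4.3.3) with TMM, glmQLFit and glmQLFTest, with 3 residual degrees of freedom in the test over both parents and 2 in the others; p-values measure the spread between lines. The 5 tests used an adjusted p of 0.05. DESeq2 1.42.0, other scalings, no filter and leaving out each library were alternatives, and offsets for transcript length (a lowess trend, span 0.3) were added after seeing the data. Single pairs have no test: their log2 ratios are on the scale of CPM with a prior count of 2, which understates the change of low genes. The exact binomial 95% intervals of single genes cover counting error only. Fits were tested on simulated counts. The members and the gene lists were chosen with earlier results of these data known. Every member could be named, and 28 were given in all 6 libraries by a rule on role and on the highest and lowest ratios in their group. Of the lists, some but not all of the genes with 1 direction in all 4 pairs were named, with CDKN1A, CDKN1B, CDKN2A, CCND1 and RB1.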

Additional observations from a re-analysis of the deposited data

How the results depend on the processing

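Scaling by total counts gave median log2 ratios of the 44 genes of 0.46 in PC-9GR, -0.071 in HCC827GR and -2.04 in HCC827ER; upper-quartile scaling gave 0.58 in PC-9GR, 0.53 in PC-9ER and -1.65 in HCC827ER; offsets for transcript length gave 0.54, 0.38 and -1.82 in PC-9GR, PC-9ER and HCC827ER. The S-phase less mitotic difference of medians was 0.072 in PC-9GR, -0.23 in PC-9ER and 0.43 in HCC827ER with the length offsets. With CDC6 and CDT1 among the S-phase genes it was 0.053 in PC-9GR and -0.10 in HCC827GR, and without MKI67, TOP2A and CCNA2 it was 0.12 in PC-9GR. Means in place of medians gave -0.055 in PC-9GR, the opposite direction, -0.18 in PC-9ER and 0.62 in HCC827ER. A 1.5-fold threshold counted 20 higher genes in PC-9GR, 19 in PC-9ER and 2 in HCC827GR, and 3 lower in HCC827GR. Upper-quartile scaling counted 6 genes 2-fold higher in PC-9ER, the length offsets 1 in PC-9ER and 1 in HCC827GR, with 2 lower in HCC827GR, and total counts 1 higher and 0 lower in HCC827GR. The share of all genes was not counted at the 1.5-fold threshold or under these scalings, so these counts have no background beside them. DESeq2 called 31 genes over both parents, 90 within PC-9, 42 within HCC827, 25 for the difference and 335 between ER and GR lines. Leaving out each library in turn, edgeR called 0 genes over both parents, 0 to 1139 within PC-9 (1139 without PC-9ER, 2 without PC-9GR), 0 to 164 within HCC827 (164 without PC-9GR, 157 without PC-9ER), 0 to 533 for the difference (533 without PC-9ER, 12 without PC-9GR) and 0 to 1426 between ER and GR lines (1426 without HCC827GR, 27 without PC-9GR); where this left 1 derived line for a parent, that line was assumed to vary like the others. None of the 44 genes was called by edgeR or DESeq2 in any of these settings. The cause of these differences was not tested.

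No paired analysis was possible because each line has 1 library and the labels number no replicates; the parent served as the block in the tests over both parents. With 2 or 3 residual degrees of freedom, standard errors of the 44 genes were 0.36 to 2.15 on the log2 scale.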

Other observations

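Replication-dependent histone mRNAs, which are made in S phase and mostly lack a poly(A) tail, were on a list of 54 genes in the table, and 23 had enough counts to be tested. In HCC827ER 14 of the 23 were above 0 and 9 below, with a median log2 ratio of 0.36, where the S-phase genes of the report had a median of -1.51. In PC-9GR 16 were above 0, 5 below and 2 at 0, with a median of 1.00, in PC-9ER 9 above, 12 below and 2 at 0, with -0.02, and in HCC827GR 13 and 10, with 0.27. Levels were low: H4C12 was at 2.18 CPM in HCC827ER, its highest library, and at 0 counts in HCC827. H2BC4 had 0.172 CPM in PC-9, 0.838 in PC-9GR, 0.392 in PC-9ER, 1.25 in HCC827, 1.98 in HCC827GR and 1.33 in HCC827ER. Many of these genes are near-identical copies, so their counts are uncertain.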
